A study of Rattus norvegicus with 23 samples.

Results

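The genes described here make cholesterol, sense its level, move it inside the cell and pass it out of the cell. The set was given as 31 gene symbols, looked up in the gene names that the authors' tables pair with 14690 identifiers. An identifier was found for 30 of them, out of 32552 genes counted in the differentiating CG4 libraries, and 29 were among the 15219 genes counted in all 23 libraries. Sc5d was in the longer list only, and Nr1h3 had no identifier and is only named. By role they are 7 enzymes of the early mevalonate pathway, 11 enzymes from squalene to cholesterol, 4 genes of sterol sensing, 4 of storage and movement inside the cell and 4 of export. Although the set is also meant to cover uptake, it holds no lipoprotein receptor, and those receptors are taken up with the other sterol genes at the end.

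Cholesterol is built from acetyl-CoA through mevalonate, isoprenoid diphosphates, squalene and lanosterol. When sterol in the endoplasmic reticulum is low, SCAP escorts the transcription factor SREBP2 (Srebf2) to the Golgi, where its active part is released, and INSIG proteins hold SCAP back when sterol is plentiful. Surplus sterol activates the LXR receptors, of which Nr1h2 encodes LXRβ and Nr1h3 LXRα, and these raise the exporters ABCA1 and ABCG1 and apolipoprotein E. Myelin is rich in cholesterol, and oligodendrocytes make most of what they use themselves, because lipoproteins of the blood do not cross into the brain.

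RNA was sequenced from rat cells in 6 groups. Differentiating CG4 cells carried the vector pCAG-myc-Zfp488-IRES-EGFP, called Zfp488 here, the vector pCAG-T7-Nkx2.2-IRES-EGFP, called Nkx2.2, or GFP alone, called control, with 4 libraries each, and the proliferating CG4 group was 3 libraries of wild-type cells with no vector. CG4 is a single permanent line of rat oligodendrocyte progenitors, and the CAG promoter drives the introduced factors strongly and without regard to cell stage. Primary oligodendroglia, shaken off mixed glial cultures of rat brain, gave 4 differentiating and 4 proliferating libraries. Differentiation meant 3 days in SATO medium with high T3/T4 and CNTF, and proliferation meant basal medium with bFGF and PDGF-AA, for both cell sources. The titles call the libraries biological replicates, and nothing ties a number to a culture, an animal or a day. The p-values therefore measure the spread between these libraries. As chi-square per degree of freedom between 2 libraries, that spread was 2.15 to 4.48 in proliferating primary cells. It was 1.77 between differentiating primary libraries 3 and 4, and 22.8 to 159 within the differentiating CG4 groups. Very small p-values in primary cells rest on this close agreement.

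The libraries held 20063345 to 49206479 counts. Levels are library-size-scaled counts (CPM) on 1 scale for all libraries, log2 fold changes are given with their standard error, and a gene is called at an adjusted p under 0.05 by edgeR's quasi-likelihood test, with Benjamini-Hochberg adjustment over all genes tested. Zfp488 stood at 131 to 201 CPM in the Zfp488 libraries and at 34.01 to 58.8 CPM in control libraries, and Nkx2-2 at 1289 to 2008 CPM in the Nkx2.2 libraries and at 210 to 304 CPM in control libraries. The 10 oligodendrocyte lineage markers summed to 94929 ± 6835 CPM in differentiating primary cells and to 4787 ± 142 CPM in proliferating ones (SD, n = 4 each), and to 15189 ± 3151 CPM in differentiating control CG4 cells (n = 4) and 6326 ± 1118 CPM in proliferating CG4 cells (n = 3). Proliferating CG4 libraries were read at 100 bases and all others at 150, so read length, vector and medium cannot be told apart there. Of 11386 genes with at least 5 CPM in some library, 176 were over 8-fold lower in every proliferating CG4 library than in any other library and 164 over 8-fold higher. Libraries numbered 3 stood apart among differentiating CG4 cells, as did libraries 1 and 2 among differentiating primary cells, and both splits touch the results that follow.

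**Figure D1:**
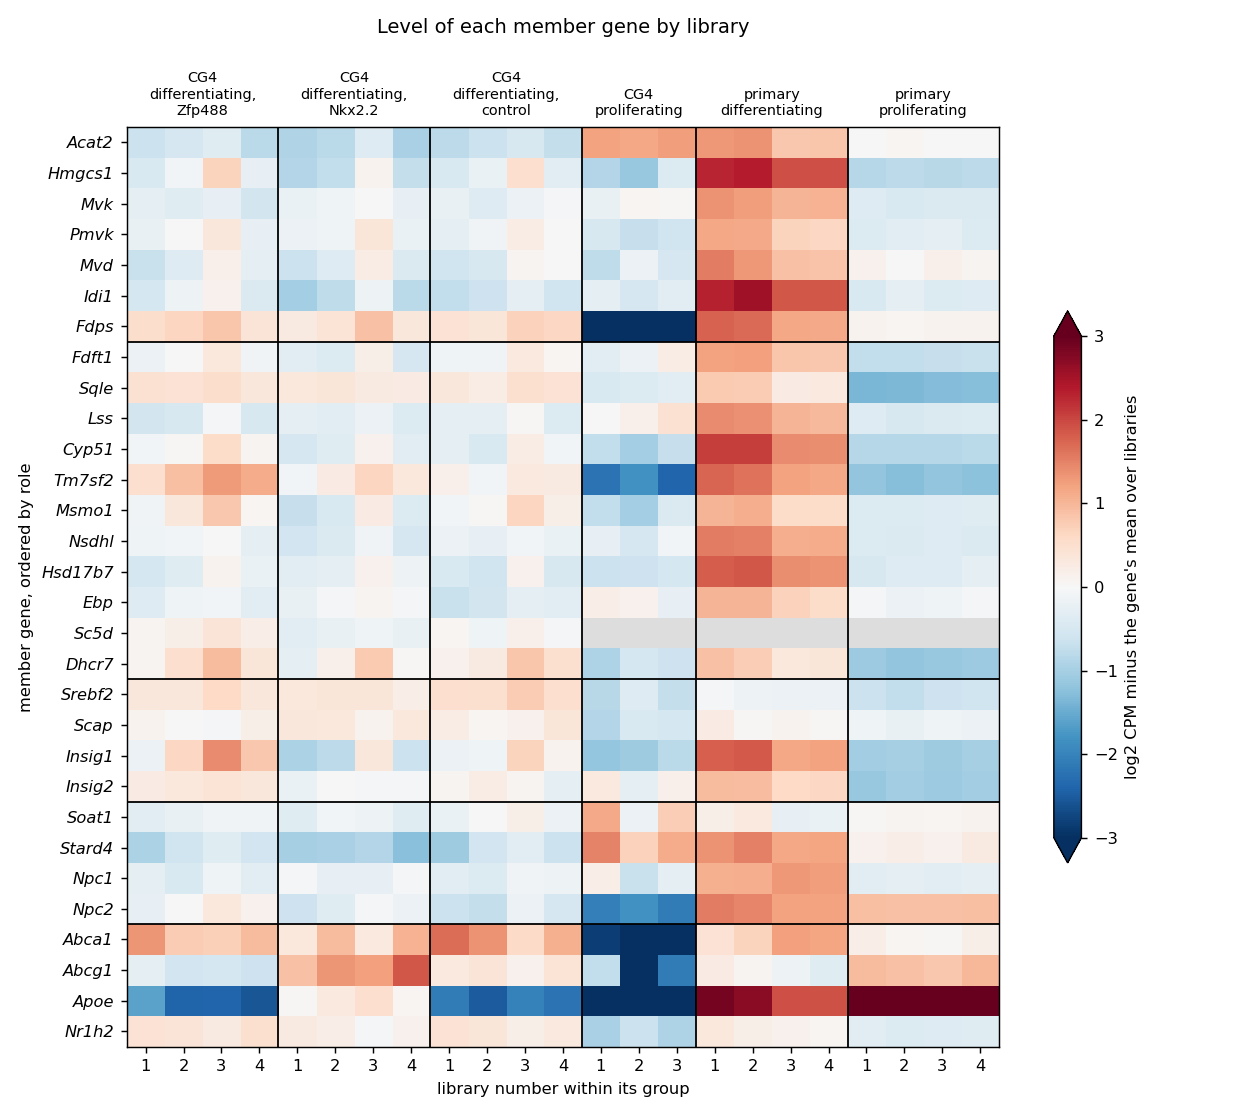
Level of each of the 30 measured cholesterol genes in each library, as log2 CPM minus the gene's mean over the libraries that list it; columns are libraries by group, lines separate groups and roles, colours end at 3 log2 units either way, and grey marks Sc5d where it was not counted. Differentiating primary libraries are red for nearly all enzymes, and Fdps, Abca1 and Apoe are dark blue in proliferating CG4 cells.

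Differentiating primary cells had more RNA of each of the 17 synthesis enzymes of the set tested than proliferating primary cells. Of 29 members tested, 26 were higher and 2 lower, where 84.8% of the 12310 genes tested were called (41.5% higher and 43.3% lower). The members' median log2 fold change was 1.42, beside -0.02 over all genes. All 17 enzymes tested were higher, by 0.96 to 2.98 on the log2 scale. The 17 enzymes together summed to 15670, 15922, 11213 and 11168 CPM in differentiating primary libraries 1 to 4, against 3083, 3094, 3125 and 3153 CPM in proliferating ones. In bulk RNA a change in the number of cells of a type and a change in RNA per cell cannot be told apart.

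**Figure D2:**
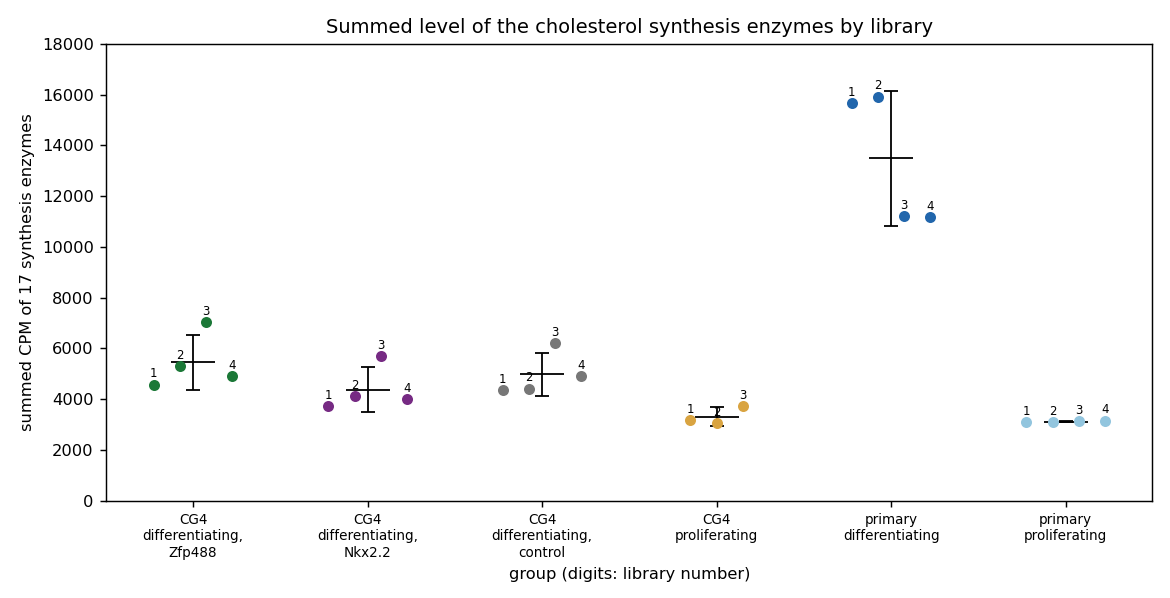
Summed CPM of the 17 synthesis enzymes counted in all libraries; each point is a library with its number, and bars are the group mean and SD. Differentiating primary libraries lie at 11168 to 15922 CPM, above all others, and the highest point of each differentiating CG4 group is library 3.

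Among the early enzymes the change was largest for Hmgcs1, which makes HMG-CoA. It stood at 4402, 4629, 3461 and 3437 CPM in differentiating primary cells, against 503, 526, 512 and 522 CPM in proliferating ones. The groups lie far apart, with a log2 fold change of 2.98 ± 0.10 (7.91-fold, adjusted p = 1.6e-10). Idi1, which interconverts the 2 isoprenoid building blocks, stood at 1205, 1414, 885 and 888 CPM in differentiating primary cells, against 178, 204, 185 and 188 CPM in proliferating ones. Its rise was 2.58 ± 0.14, again with no overlap. The kinases and the decarboxylase that turn mevalonate into isopentenyl diphosphate rose less, by 1.63 ± 0.07 (Mvk), 1.31 ± 0.12 (Pmvk) and 1.12 ± 0.13 (Mvd). Acat2, the cytosolic acetoacetyl-CoA thiolase of the first step, rose by 1.11 ± 0.11, and Fdps, which makes farnesyl diphosphate, by 1.42 ± 0.13.

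From squalene onward, Tm7sf2, a sterol reductase, rose by 2.72 ± 0.12, with 478.5, 441.1, 327 and 316 CPM in differentiating primary cells, against 62.4, 58.3, 62.5 and 60.3 CPM in proliferating ones. Cyp51, the demethylase of lanosterol, rose by 2.66 ± 0.15, with 3137, 3158, 1993 and 1974 CPM in differentiating primary cells, against 410, 412, 416 and 425 CPM in proliferating ones. For both genes each differentiating library was above each proliferating library. Squalene synthase (Fdft1) rose by 1.77 ± 0.09, squalene epoxidase (Sqle) by 1.91 ± 0.12 and lanosterol synthase (Lss) by 1.67 ± 0.09. The demethylation enzymes Msmo1, Nsdhl and Hsd17b7 rose by 1.26 ± 0.11, 1.78 ± 0.10 and 2.05 ± 0.11. The sterol isomerase Ebp had the smallest rise of the enzymes at 0.96 ± 0.10, and Dhcr7, the reductase that yields cholesterol, rose by 1.75 ± 0.11.

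The sensing genes rose too, and the negative regulators rose most. Insig1, which retains SCAP and is itself an SREBP target, stood at 1463, 1515, 957 and 982 CPM in differentiating primary cells, against 206, 214, 204 and 212 CPM in proliferating ones. No libraries overlapped, and the rise was 2.59 ± 0.14 (adjusted p = 1.5e-08). Insig2 rose by 1.90 ± 0.09, Srebf2 by 0.55 ± 0.05 and Scap by 0.31 ± 0.05.

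The start regions of 4 of the 5 members with the largest rises are shown, chosen after their values were seen because each holds the letters CCAAT, the core bound by the factor NF-Y, a known partner of SREBP2. The window of the fifth, Cyp51, holds none. The 300-base windows run from 250 bases before to 50 bases after the gene start in RefSeq (GRCr8), 5′ to 3′ on the gene's strand. Capitals mark CCAAT, found here only on the opposite strand as ATTGG, and in Insig1 also CACGTG, an E-box. The windows are Hmgcs1 at chr2:53382054-53382353 (plus strand), Idi1 at chr17:66547475-66547774 (minus), Tm7sf2 at chr1:212789492-212789791 (minus) and Insig1 at chr4:8057720-8058019 (minus).
Hmgcs1: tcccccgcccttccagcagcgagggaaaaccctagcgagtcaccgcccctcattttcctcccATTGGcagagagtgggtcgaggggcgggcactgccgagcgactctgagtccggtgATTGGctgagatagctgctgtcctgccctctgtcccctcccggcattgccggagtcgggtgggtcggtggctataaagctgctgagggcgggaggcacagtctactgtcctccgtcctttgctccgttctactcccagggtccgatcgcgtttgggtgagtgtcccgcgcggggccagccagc
Idi1: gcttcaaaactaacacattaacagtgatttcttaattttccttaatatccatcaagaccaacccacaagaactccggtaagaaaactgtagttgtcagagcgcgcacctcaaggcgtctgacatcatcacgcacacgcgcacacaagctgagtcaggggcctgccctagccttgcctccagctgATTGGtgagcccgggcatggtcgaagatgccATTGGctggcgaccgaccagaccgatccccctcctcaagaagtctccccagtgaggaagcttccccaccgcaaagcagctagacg
Tm7sf2: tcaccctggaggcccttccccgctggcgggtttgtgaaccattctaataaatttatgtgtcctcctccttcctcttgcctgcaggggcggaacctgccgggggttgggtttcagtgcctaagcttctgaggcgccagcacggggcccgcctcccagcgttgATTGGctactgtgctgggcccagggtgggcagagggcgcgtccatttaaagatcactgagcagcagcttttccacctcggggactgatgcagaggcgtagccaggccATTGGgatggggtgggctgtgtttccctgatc
Insig1: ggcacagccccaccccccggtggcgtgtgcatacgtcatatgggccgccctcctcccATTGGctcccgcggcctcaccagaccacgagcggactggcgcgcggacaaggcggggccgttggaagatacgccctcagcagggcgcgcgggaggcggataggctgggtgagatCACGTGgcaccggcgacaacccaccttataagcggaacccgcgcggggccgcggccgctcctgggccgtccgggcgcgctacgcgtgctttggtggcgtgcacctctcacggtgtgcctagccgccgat

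A window was found for 25 of the 30 members with an identifier. CCAAT, on either strand, was in 12 of the 15 enzyme windows (80%) and 17 of the 25 member windows (68%), against 37.7% of all 27457 windows. CACGTG was in 4 member windows (16%), of Sc5d, Scap, Insig1 and Abca1, against 6.65% of all windows and 9.12% of the 10130 windows of named genes. The sterol-element-like CACCCCAC was in 1 member window, that of Ebp, against 2.57% of all windows, and TCACNCCAC, which contains it where N is C, was in none of the 25, against 1.13%. These are letter matches in the windows, counted on both strands.

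Storage and movement genes rose less evenly. Stard4, a soluble sterol carrier, rose by 1.16 ± 0.07, and Npc1, which takes cholesterol out of lysosomes, by 1.52 ± 0.06. Its lysosomal partner Npc2 rose by 0.51 ± 0.07. Soat1, which esterifies cholesterol for storage, stood at 53.1, 57.7, 39.5 and 41.1 CPM in differentiating primary cells, against 48.4, 49.7, 48.8 and 50.3 CPM in proliferating ones, and was not called (-0.00 ± 0.10, adjusted p = 0.98). Its differentiating libraries 1 and 2 lay above all proliferating libraries and libraries 3 and 4 below them, and it was lower at -0.24 (adjusted p = 4.9e-05) with libraries 1 and 2 left out and higher at 0.23 (adjusted p = 0.00039) with libraries 3 and 4 left out. Of the 29 members, 26 were higher in differentiating libraries 1 and 2 than in 3 and 4, among them all 17 enzymes, and 2 were lower (Npc1 and Abca1). How many of all genes split in this way was not counted. Over all genes these pairs of libraries also stood apart, with a chi-square per degree of freedom of 29.3 to 37.1 between them. With either pair left out, alternatives chosen after seeing the data, 29 members were called, Soat1 included.

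The export genes split. Apoe, the main lipid-carrying protein of brain lipoproteins, stood at 744, 657, 388 and 383 CPM in differentiating primary cells, against 3491, 3199, 3561 and 3482 CPM in proliferating ones. It fell by 2.63 ± 0.20 on the log2 scale (6.17-fold lower, adjusted p = 2.4e-07), with no overlap. Abcg1, which hands sterol to lipoprotein particles, stood at 12.98, 11.6, 9.90 and 8.58 CPM in differentiating cells, against 21.3, 20.1, 19.2 and 21.8 CPM in proliferating ones, and fell by 0.89 ± 0.11. Abca1, which hands sterol and phospholipid to lipid-poor apolipoproteins, rose by 0.83 ± 0.16, and Nr1h2 by 0.58 ± 0.05. Microglia express Apoe strongly, and 3 of 12 listed microglia markers had an identifier (Csf1r, Cd68 and P2ry12). They summed to 18.7 to 24.8 CPM in differentiating primary libraries and to 446 to 466 CPM in proliferating ones. The 2 fibroblast and pericyte markers with an identifier, of 8 listed, summed to 5.52 to 10.5 CPM in differentiating and 56.8 to 78.4 CPM in proliferating libraries. The 7 astrocyte markers with an identifier, of 8 listed, summed to 1426 to 2563 CPM in differentiating and 210 to 221 CPM in proliferating libraries. The part of these cells in the export results was not tested. In the fit of 15 libraries Abca1 and Abcg1 lost their calls (adjusted p = 0.13 and 0.079).

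In differentiating control CG4 cells against proliferating CG4 cells the pathway moved as a mixture. Of 29 members tested 16 were higher and 4 lower, where 65.8% of the 12486 genes tested were called (32.5% higher and 33.2% lower), a share close to that of all genes, and the members' median log2 fold change was 0.70, beside 0.01 over all genes. Of 17 enzymes 8 were higher, 3 lower and 6 not called. The 17 enzymes summed to 4364, 4416, 6205 and 4910 CPM in control libraries 1 to 4, against 3156, 3053 and 3726 CPM in proliferating CG4 libraries. The groups did not overlap, and without Fdps the sums were 4435 ± 807 CPM in control (n = 4) and 3290 ± 361 CPM in proliferating CG4 cells (SD, n = 3).

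Fdps and Acat2 need care in this comparison. Fdps stood at 505, 475, 600 and 573 CPM in control CG4 cells, against 25.0, 15.8 and 22.3 CPM in proliferating CG4 cells, a difference of 4.70 ± 0.21. No library of another group was under 385.6 CPM. RefSeq (GRCr8) lists 5 further rat loci named as copies of Fdps, and 2 named as copies of Acat2 beside the like gene Acat2l1. Acat2 stood at 99.0, 109, 123 and 104 CPM in control CG4 cells, against 398, 382 and 409 CPM in proliferating CG4 cells, a difference of -1.84 ± 0.11. Acat2l1, looked at after these values were seen, stood at 21.0 to 26.3 CPM in control CG4 cells and at under 0.05 CPM in each proliferating CG4 library, where the next lowest library of any group had 19.2 CPM. Acat2 and Acat2l1 together summed to 132 ± 11.4 CPM in control and 396 ± 13.9 CPM in proliferating CG4 cells (SD, n = 4 and 3). Levels of near-identical genes are uncertain where reads can be split between copies, and counting, read length and group cannot be told apart here.

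Among the other enzymes, Tm7sf2 changed most, with 158, 134, 174 and 172 CPM in control CG4 cells, against 30.7, 40.0 and 27.3 CPM in proliferating CG4 cells (2.31 ± 0.18, adjusted p = 1.5e-05). The groups did not overlap. Dhcr7 rose by 1.16 ± 0.20, Msmo1 by 0.96 ± 0.22, Sqle by 0.79 ± 0.12, Cyp51 by 0.70 ± 0.18 and Pmvk by 0.58 ± 0.14. Hmgcs1 (0.73 ± 0.27, adjusted p = 0.043), Lss (-0.41 ± 0.16, 0.045) and Ebp (-0.47 ± 0.18, 0.043) were called as well, and each lost its call when single libraries were left out, with adjusted p of up to 0.117, 0.167 and 0.111. Mvk, Mvd, Idi1, Fdft1, Nsdhl and Hsd17b7 were not called, with values of -0.15 to 0.30.

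Of the sensing genes Srebf2 rose by 1.22 ± 0.16, Insig1 by 1.19 ± 0.23 and Scap by 0.83 ± 0.14, and Insig2 stood at -0.01 ± 0.20. Srebf2 had 1182, 1150, 1408 and 1182 CPM in control CG4 cells, against 465, 631 and 506 CPM in proliferating CG4 cells, without overlap. Stard4 fell by 1.74 ± 0.22, with 20.8, 29.1, 35.0 and 27.8 CPM in control CG4 cells, against 121, 70.4 and 94.4 CPM in proliferating CG4 cells. Npc2 rose by 1.51 ± 0.16. Soat1 was not called (-0.68 ± 0.27, adjusted p = 0.055), and was lower without proliferating library 2, at -0.96 (adjusted p = 0.0013).

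All 4 export genes rose in CG4 cells. Apoe stood at 23.6, 17.9, 25.0 and 21.9 CPM in control CG4 cells, against 3.95, 7.18 and 4.95 CPM in proliferating CG4 cells (2.07 ± 0.25), and Nr1h2 rose by 1.19 ± 0.13. Abca1 stood at 146, 115, 67.4 and 94.4 CPM in control CG4 cells, against 6.41, 0.312 and 1.46 CPM in proliferating CG4 cells (5.27 ± 0.87, adjusted p = 0.00089). The groups were far apart, and the proliferating libraries differed among themselves by more than 10-fold, so the estimate was 4.76 without proliferating library 2 and 6.86 without library 1. Abcg1 had 13.3, 14.3, 12.02 and 14.6 CPM in control CG4 cells, against 6.55, 0.312 and 2.55 CPM in proliferating CG4 cells (2.12 ± 0.75, adjusted p = 0.034). That value was 1.59 without proliferating library 2 and 3.24 without library 1, and the call was lost on leaving out any control library or proliferating library 3, with an adjusted p of up to 0.094. The 3 microglia markers summed to 5.31 to 10.9 CPM in control and 4.61 to 6.495 CPM in proliferating CG4 libraries, and the astrocyte markers to 2355 to 3777 CPM and 166 to 348 CPM.

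**Figure D3:**
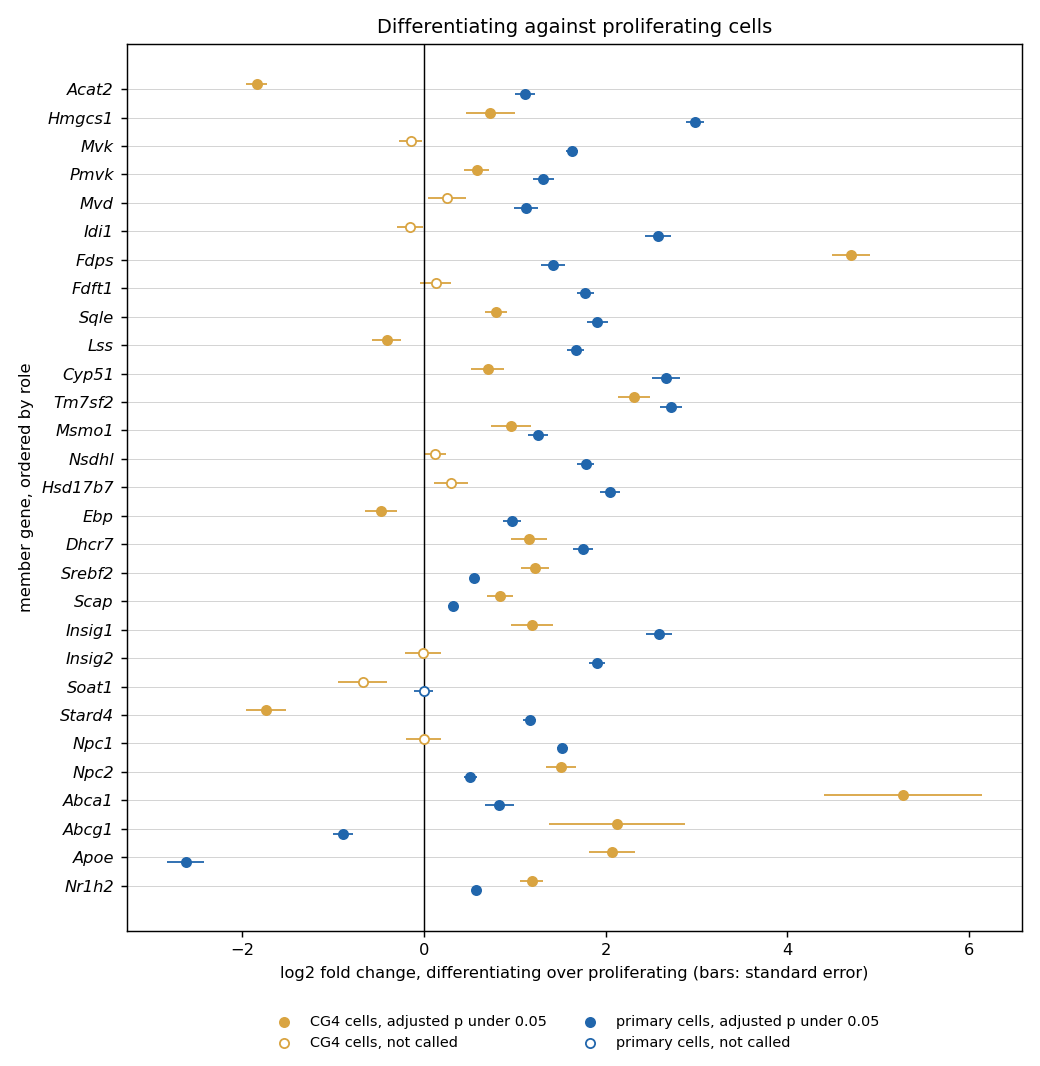
Log2 fold change of each member, differentiating over proliferating, in CG4 cells (control vector over wild type) and in primary cells; bars are standard errors and filled points have an adjusted p under 0.05. Primary values of the 17 enzymes lie between 0.96 and 2.98, while CG4 values spread on both sides of 0, and Apoe and Abcg1 lie on opposite sides of 0 in the 2 cell sources.

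The response to differentiation differed between CG4 and primary cells for most members. In an interaction term that subtracts the primary response from the CG4 response, 8 members were higher and 18 lower of 29, where 69.3% of the 13207 genes tested were called (33.8% higher and 35.4% lower). The members' median was -1.07, beside -0.03 over all genes. Of 17 enzymes 14 had the lower response in CG4 cells, led by Acat2 (-2.91 ± 0.17), Idi1 (-2.69 ± 0.21) and Hmgcs1 (-2.21 ± 0.29), and Fdps was the 1 with a higher response (3.32 ± 0.24). The values of Acat2 and Fdps rest on their uncertain levels in proliferating CG4 cells. Msmo1 (-0.26 ± 0.25) and Tm7sf2 (-0.37 ± 0.21) were not called, and Dhcr7 (-0.55 ± 0.22, adjusted p = 0.041) lost its call when any of several single libraries was left out, with an adjusted p of up to 0.089.

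All 4 export genes had the higher response in CG4 cells, and for Apoe and Abcg1 the responses had opposite signs. The differences were 4.74 ± 0.34 for Apoe, 4.47 ± 0.73 for Abca1, 3.05 ± 0.70 for Abcg1 and 0.65 ± 0.12 for Nr1h2. Srebf2 (0.72 ± 0.14) and Scap (0.56 ± 0.14) had the higher response in CG4 cells, while Insig1 (-1.36 ± 0.28) and Insig2 (-1.87 ± 0.21) had the lower. Stard4 (-2.86 ± 0.24) and Npc1 (-1.48 ± 0.20) were lower and Npc2 (1.04 ± 0.17) higher. With differentiating primary libraries 1 and 2 left out, 24 members were called instead of 26, and Mvd and Dhcr7 were lost.

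Set side by side while differentiating, control CG4 cells had less RNA than primary cells for most of the pathway. Of 29 members 1 was higher and 21 lower, where 73% of 13207 genes were called (36.8% higher and 36.2% lower), and the median was -1.29, beside 0.00 over all genes. Of 17 enzymes 15 were lower, by up to 2.72 (Idi1), and Sqle (-0.17 ± 0.12) and Dhcr7 (-0.14 ± 0.15) were not called. With differentiating primary libraries 1 and 2 left out Msmo1 lost its call (-0.33, adjusted p = 0.14), and with libraries 3 and 4 left out Sqle was lower (-0.39, adjusted p = 0.0020). Srebf2 was the member that was higher (0.70 ± 0.10), with 1182, 1150, 1408 and 1182 CPM in control CG4 cells, against 806, 743, 739 and 729 CPM in differentiating primary cells. Its levels did not overlap and ran opposite to those of most enzymes. Apoe was lower by 4.62 ± 0.25 on the log2 scale, with 17.9 to 25.0 CPM in control CG4 cells against 383 to 744 CPM in differentiating primary cells, where the microglia markers summed to 5.31 to 10.9 CPM and 18.7 to 24.8 CPM. Abca1, Abcg1 and Nr1h2 were not called.

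While proliferating, the cell sources differed in both directions. Of 29 members 9 were higher and 9 lower in CG4 cells, where 71.2% of 13207 genes were called (39.2% higher and 32% lower). The split moved to 7 higher and 11 lower with RLE size factors, which shift the median of all genes from 0.10 to 0.00. Of 17 enzymes 6 were higher, 3 lower and 8 not called, with a median of 0.01. The largest differences were those of Fdps (-4.26 ± 0.21) and Acat2 (1.16 ± 0.12), whose levels in proliferating CG4 cells are uncertain. Hmgcs1 (0.01 ± 0.21), Cyp51 (0.01 ± 0.19) and Idi1 (-0.03 ± 0.15) were not called. Tm7sf2 was lower in CG4 cells (-0.93 ± 0.16) and Sqle higher (0.91 ± 0.12). All 4 export genes and Npc2 were lower, with 3.95 to 7.18 CPM of Apoe in proliferating CG4 cells, against 3199 to 3561 CPM in proliferating primary cells, in which the microglia markers summed to 446 to 466 CPM.

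**Figure D4:**
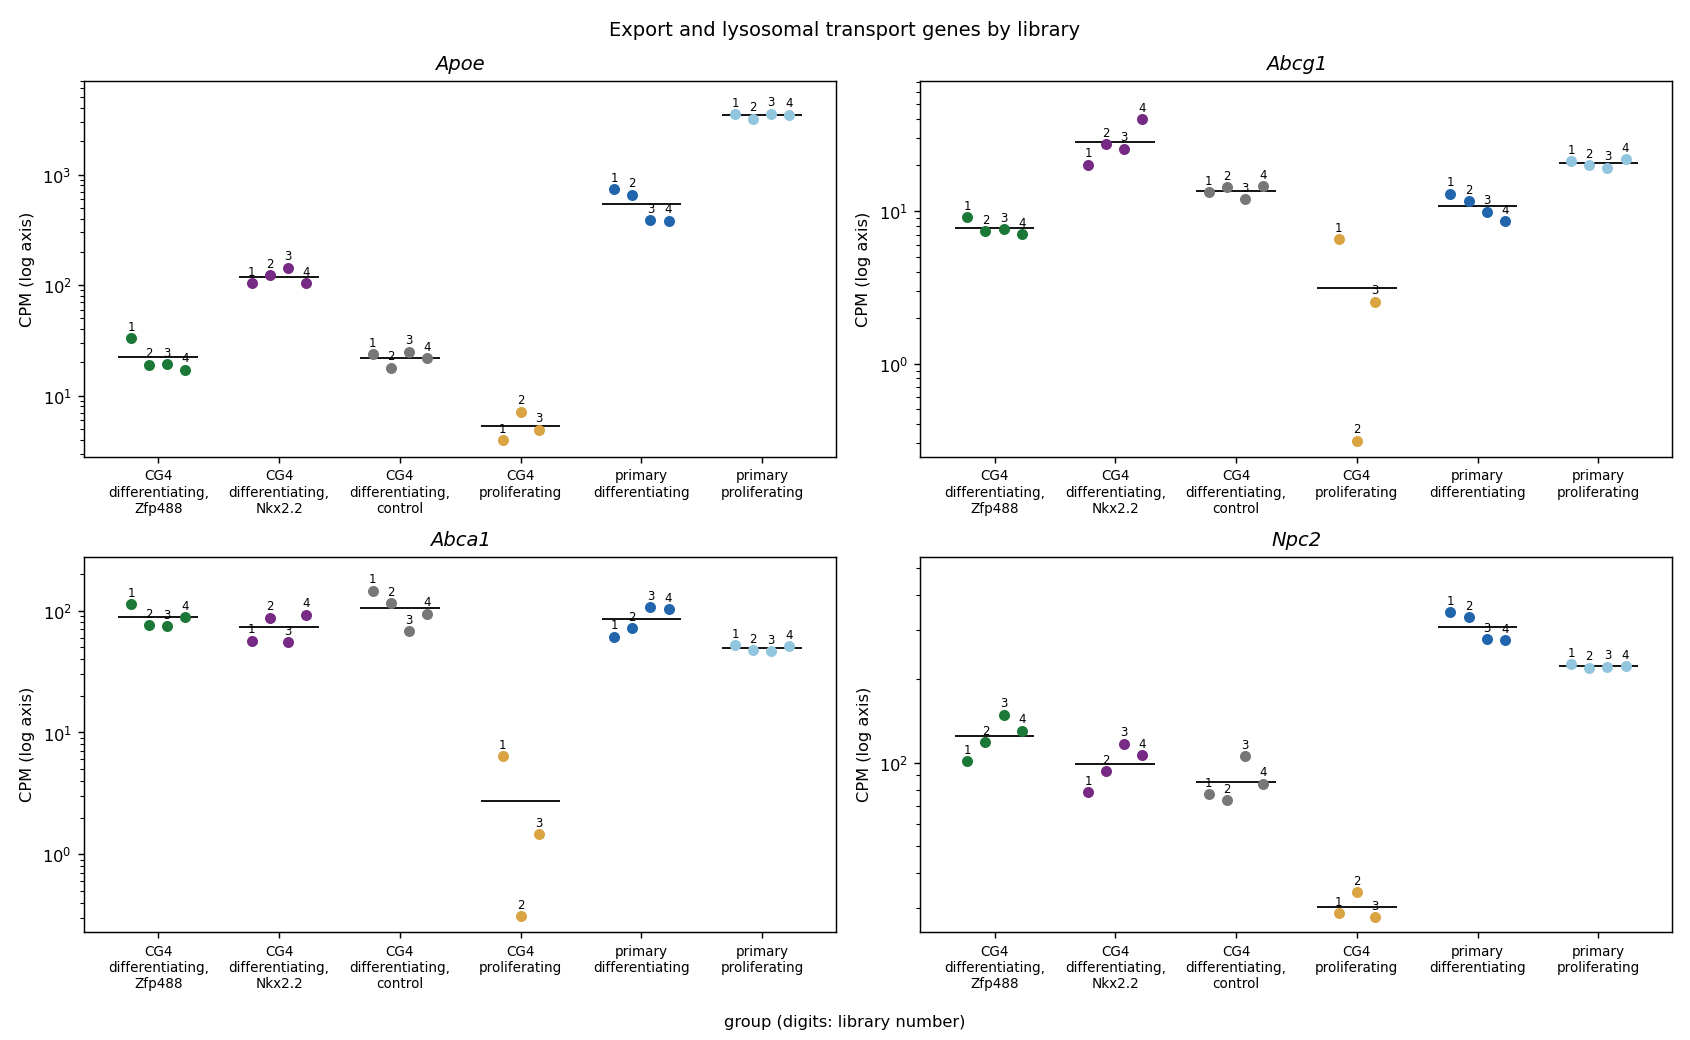
CPM, on log axes, of Apoe, Abcg1, Abca1 and Npc2 in each library; points are libraries with their numbers and black lines are group means. Apoe is highest in proliferating primary cells and, among differentiating CG4 cells, at 104 to 144 CPM with Nkx2.2, and proliferating CG4 libraries spread widely for Abcg1 and Abca1.

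With Zfp488 in differentiating CG4 cells, a few pathway genes were higher than with the control vector. Of 30 members 2 were higher and 1 lower, where 9.04% of the 14811 genes tested were called (5.89% higher and 3.15% lower), a share close to that of all genes, and the median was 0.07, beside -0.02 over all genes. Libraries with the same number tended to deviate together in the 3 differentiating CG4 groups, more clearly for some numbers than for others. With the number as a block 8 members were higher and 1 lower, where 24.1% of all genes were called (14% higher and 10.2% lower). The total is not far from the background, while the called members leaned to higher more than all genes did. With libraries numbered 3 left out of all 3 groups, an alternative chosen after seeing the data, the fits called 2 members without and 6 with the block. Here and below, counts without libraries numbered 3 stand without the share of all genes, so they cannot be set against the background. The block leaves the estimates nearly where they were and narrows their errors.

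Tm7sf2 had the clearest enzyme change. It stood at 200, 265, 342 and 309 CPM in Zfp488 libraries 1 to 4, against 158, 134, 174 and 172 CPM in control libraries. The groups did not overlap, and the log2 fold change was 0.82 ± 0.18 (1.76-fold, adjusted p = 0.016), or 0.79 ± 0.10 with the block (adjusted p = 0.00056). Within numbered pairs the log2 ratio was 0.34, 0.98, 0.97 and 0.85. Without Zfp488 library 4 the unblocked fit called 0 members, Tm7sf2 included (adjusted p = 0.057). In that fit 5 members had an unadjusted p under 0.05, with no such count over all genes. Over all genes that fit called 458, against 1339 with every library kept. DESeq2 without that library called 3 members (Tm7sf2, Npc2 and Abcg1), with no count given over all genes.

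Npc2 stood at 101, 119, 149 and 130 CPM in Zfp488 libraries, against 77.1, 73.5, 105.5 and 84.1 CPM in control libraries, and rose by 0.56 ± 0.16 (adjusted p = 0.042, and 0.00033 with the block). Libraries of the 2 groups overlapped, all 4 pairs were positive, and the unblocked call was lost on leaving out most single libraries (adjusted p of up to 0.116). Abcg1 stood at 9.07, 7.38, 7.64 and 7.06 CPM with Zfp488, against 13.3, 14.3, 12.02 and 14.6 CPM in control libraries, and fell by 0.79 ± 0.18 (adjusted p = 0.020, and 0.0074 with the block), without overlap. The unblocked call of Abcg1 was lost without Zfp488 library 2 or 4, with an adjusted p of up to 0.070. Apoe did not differ detectably at 0.01 ± 0.20, with 33.2, 19.1, 19.4 and 17.2 CPM with Zfp488, against 23.6, 17.9, 25.0 and 21.9 CPM in control libraries. The microglia markers summed to 4.95 to 8.52 CPM with Zfp488 and 5.31 to 10.9 CPM in control libraries. The oligodendrocyte lineage markers summed to 19009 to 31988 CPM with Zfp488 and 12444 to 18767 CPM in control libraries, and their part in these results was not tested.

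Calls that came with the block were Insig1 (0.56 ± 0.12), Idi1 (0.32 ± 0.08), Insig2 (0.31 ± 0.10), Cyp51 (0.30 ± 0.07), Ebp (0.24 ± 0.08) and Sc5d (0.22 ± 0.06), the last a sterol desaturase. Of the 18 enzymes 5 were higher and none lower with the block. Insig1 stood at 377, 655, 1128 and 747 CPM in Zfp488 libraries 1 to 4, against 378, 390, 680 and 460 CPM in control libraries. The ranges overlapped, and the first pair was level (-0.00) while the others lay at 0.75, 0.73 and 0.70. Hmgcs1, Sqle, Lss, Fdft1 and the early kinases were not called with either fit. The 3 members called without the block were, in the authors' deposited table for Zfp488, also 2 higher and 1 lower.

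With Nkx2.2, Apoe and Abcg1 rose and part of the synthesis enzymes were lower in the blocked fit. Of 30 members 3 were higher and 0 lower by edgeR's quasi-likelihood test, where 10.6% of 14811 genes were called (6.1% higher and 4.48% lower), a share close to that of all genes. At an unadjusted p under 0.05 there were 8 members, with no such count over all genes. DESeq2 called 4 members, of which Srebf2 was lower (-0.26, adjusted p = 0.043). Over all genes DESeq2 called 2320, against 1567 by edgeR's quasi-likelihood test, so calls rose for all genes as well. With the block 4 members were higher and 10 lower, where 26.2% of all genes were called (12.6% higher and 13.5% lower). With libraries numbered 3 left out the fits called 8 members without and 11 with the block, counts that cannot be set against the background. The members' median was -0.10 without and -0.11 with the block, beside -0.01 over all genes.

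Apoe showed the largest change of any member. It stood at 104, 124, 144 and 105 CPM in Nkx2.2 libraries, against 23.6, 17.9, 25.0 and 21.9 CPM in control libraries. All Nkx2.2 libraries lay above all control libraries, with a log2 fold change of 2.43 ± 0.20 (5.40-fold, adjusted p = 2.6e-05) and pair ratios of 2.14, 2.79, 2.53 and 2.26. Abcg1 stood at 20.1, 27.4, 25.6 and 39.8 CPM with Nkx2.2, against 13.3, 14.3, 12.02 and 14.6 CPM in control libraries, and rose by 1.06 ± 0.18 (2.09-fold, adjusted p = 0.0023), without overlap. Abca1 did not follow them, at -0.52 ± 0.24 (adjusted p = 0.19), with 56.8, 87.7, 55.1 and 92.8 CPM with Nkx2.2, against 146, 115, 67.4 and 94.4 CPM in control libraries. Nr1h2 was lower with the block, at -0.18 ± 0.05 (adjusted p = 0.034), and not called without it (0.19). The 3 microglia markers summed to 6.51 to 14.3 CPM with Nkx2.2 and 5.31 to 10.9 CPM in control libraries, and the astrocyte markers to 2053 to 3896 CPM and 2355 to 3777 CPM. Their part in the rise of Apoe was not tested.

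The enzymes lower with Nkx2.2 in the blocked fit were Msmo1 (-0.53 ± 0.08), Hmgcs1 (-0.44 ± 0.06), Fdft1 (-0.30 ± 0.08), Dhcr7 (-0.25 ± 0.08), Sc5d (-0.23 ± 0.06) and Nsdhl (-0.22 ± 0.07). Hmgcs1 stood at 489, 541, 973 and 552 CPM in Nkx2.2 libraries 1 to 4, against 662, 794, 1279 and 721 CPM in control libraries. The ranges overlapped because library 3 was high in both groups, while the pair ratios were all negative at -0.44, -0.55, -0.39 and -0.39. Without the block its adjusted p was 0.39. Msmo1 had pair ratios of -0.63, -0.49, -0.41 and -0.61. Insig1 (-0.63 ± 0.12), Stard4 (-0.36 ± 0.11) and Srebf2 (-0.25 ± 0.07) were lower with the block as well, and Npc2 was higher (0.22 ± 0.06). The oligodendrocyte lineage markers summed to 8259, 10548, 18519 and 14960 CPM in Nkx2.2 libraries 1 to 4, against 12639, 12444, 18767 and 16905 CPM in control libraries. Their sum was lower with Nkx2.2 in all 4 pairs, and its part in the enzyme values was not tested.

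Ebp was the enzyme that was higher with Nkx2.2, at 0.40 ± 0.12 (adjusted p = 0.049, and 0.0043 with the block). It had 17.5, 19.6, 21.7 and 19.8 CPM with Nkx2.2, against 12.9, 13.9, 16.95 and 16.1 CPM in control libraries, with no overlap. The unblocked call was lost with no filter on low counts (adjusted p = 0.070), with counts thinned to the smallest library (0.10) and on leaving out most single libraries. The authors' deposited table for Nkx2.2 called 3 members higher and 0 lower.

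**Figure D5:**
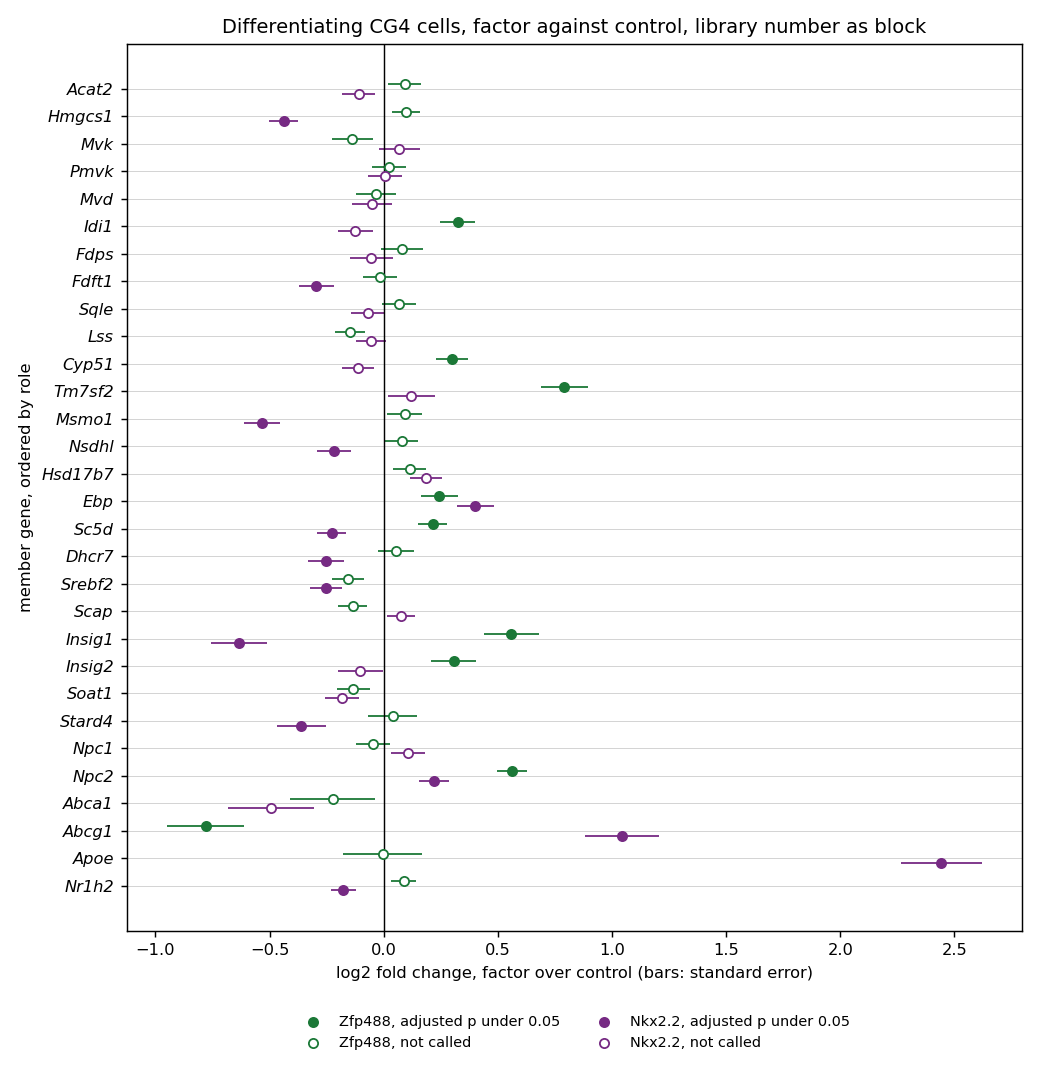
Log2 fold change of each member with Zfp488 and with Nkx2.2 over the control vector in differentiating CG4 cells, from the fit with the library number as a block; bars are standard errors and filled points have an adjusted p under 0.05. Both sets share the control libraries. Insig1 lies at 0.56 with Zfp488 and -0.63 with Nkx2.2, and Apoe at -0.00 and 2.44.

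Set directly against each other, Zfp488 and Nkx2.2 libraries differed in 7 of 30 members, 5 higher and 2 lower with Zfp488. Over all 14811 genes 25.3% were called (13.3% higher and 12% lower), so the members' share is close to that of all genes. Control libraries are no side of this contrast, but they share in the estimate of the spread in the fit of 12 libraries. The members' median was 0.23, beside -0.01 over all genes. With the block 15 were higher and 3 lower, where 42.4% of all genes were called (22% higher and 20.3% lower), and 10 of 18 enzymes were higher and none lower. With libraries numbered 3 left out the fits called 12 members without and 18 with the block, again without the share of all genes. In all 4 pairs the Zfp488 library was the higher one for 16 members, 11 of them enzymes. The share of all genes with this pattern was not counted, so the number cannot be set against the background. The oligodendrocyte lineage markers summed to 19009 to 31988 CPM with Zfp488 and to 8259 to 18519 CPM with Nkx2.2, without overlap, and their part in these differences was not tested.

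Insig1 stood at 377, 655, 1128 and 747 CPM with Zfp488, against 220, 246, 536 and 273 CPM with Nkx2.2 (1.19 ± 0.35, adjusted p = 0.025, and 4e-05 with the block). Every pair had the Zfp488 library higher, at 0.78, 1.41, 1.07 and 1.45, although the lowest Zfp488 library lay under the highest Nkx2.2 library. The unblocked call was lost without Zfp488 library 3 or 4 or Nkx2.2 library 1, 2 or 4, with an adjusted p of up to 0.077. Cyp51 differed by 0.41 ± 0.07 with the block, and its pair ratios lay between 0.40 and 0.42. Msmo1 (0.62 ± 0.08), Hmgcs1 (0.53 ± 0.06), Idi1 (0.45 ± 0.08), Nsdhl (0.30 ± 0.07), Dhcr7 (0.31 ± 0.08), Fdft1 (0.28 ± 0.08) and Acat2 (0.20 ± 0.07) were higher with Zfp488 in the blocked fit and not called in the unblocked fit of all 12 libraries, as were Stard4 (0.40 ± 0.11) and Npc2 (0.34 ± 0.06). DESeq2, with no block, called Msmo1 (adjusted p = 0.039), Nsdhl (0.034) and Stard4 (0.044) as well. Tm7sf2 (0.68 ± 0.18), Sc5d (0.45 ± 0.09), Insig2 (0.41 ± 0.11) and Nr1h2 (0.26 ± 0.08) were higher in both, and Insig2 and Nr1h2 lost their unblocked calls when single libraries were left out.

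Apoe was lower with Zfp488 than with Nkx2.2 by 2.42 ± 0.20 on the log2 scale (adjusted p = 1.6e-05), and Abcg1 by 1.85 ± 0.18 (4.3e-05). Neither gene's libraries overlapped between the 2 factors, and all 4 pairs were negative for both genes. Scap was lower by 0.21 ± 0.06 with the block (adjusted p = 0.019) and not called without it (0.092). Without Nkx2.2 library 3 the unblocked fit called 14 members instead of 7, among them Hmgcs1, Idi1, Cyp51, Msmo1 and Scap. Over all genes it called 4636 instead of 3741. Of the 30 members, 24 were highest in library 3 of the Zfp488 group, 21 in library 3 of the Nkx2.2 group and 24 in library 3 of the control group. In all 3 groups 16 of 18 enzymes peaked there. No such count was made over all genes.

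A further list of 51 sterol genes outside the set, of which 48 had an identifier, covered uptake receptors, sterol oxidation, lysosomal release and other transporters. In differentiating against proliferating primary cells 23 of 45 tested were higher and 17 lower, where 84.8% of all genes were called. Abca2, a lipid transporter of oligodendrocytes, rose by 3.44 ± 0.05, the lipoprotein receptor gene Vldlr by 2.43 ± 0.06 and Cyp46a1, which hydroxylates cholesterol for removal, by 5.89 ± 0.16. Ch25h, another cholesterol hydroxylase, fell by 5.02 ± 0.15 on the log2 scale, with 0.379 to 0.769 CPM in differentiating and 18.9 to 22.99 CPM in proliferating primary cells, beside the microglia marker sums given for Apoe. In control against proliferating CG4 cells 22 of 46 were higher and 12 lower, where 65.8% of all genes were called, among them Abca2 (2.69 ± 0.17), Abca7 (2.57 ± 0.25) and Lbr, a sterol reductase of the nuclear envelope (-2.21 ± 0.14). In the interaction 16 of 47 were higher and 15 lower, where 69.3% of all genes were called. These shares lie close to those of all genes.

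With Zfp488 against control 3 of 48 were higher and 1 lower, where 9.04% of all genes were called, and with the block 8 were higher and 5 lower, where 24.1% were. Lipa, the lysosomal lipase that frees cholesterol from its esters, rose by 1.77 ± 0.27 (adjusted p = 0.0036), with 456 to 1082 CPM with Zfp488, against 170 to 277 CPM in control libraries. With Nkx2.2 against control 2 of 48 were higher and 3 lower, where 10.6% of all genes were called, and with the block 6 were higher and 8 lower, where 26.2% were. Mbtps2, a protease that releases active SREBP, was lower at -0.80 ± 0.17. Directly between the factors 6 of 48 were higher with Zfp488 and 3 lower, where 25.3% of all genes were called, and with the block 9 were higher and 9 lower, where 42.4% were. Lipa stood at 2.54 ± 0.28 there without the block. Differentiating control CG4 cells had less Srebf1, the gene of the related factor SREBP1, than differentiating primary cells (-3.83 ± 0.19), among 15 higher and 21 lower of 47, where 73% of all genes were called.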

How the data were processed

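Per the labels, RNA-seq was run on 23 libraries in 6 groups. The deposited files hold raw counts per gene for each library. Per the submitters' processing notes, STAR 2.5.2b was used with build rn6, along with Trimmomatic 0.36 and featureCounts from Subread 1.5.2. Which annotation release was counted, whether strand was used and how multiply matching reads were handled is not given in the sources used here. The authors' deposited tables for Zfp488 and Nkx2.2 also give log2 fold changes, p-values and a normalised signal per library (counts divided by a size factor); their gene names and their calls of members were used.

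The quasi-likelihood test of edgeR 4.0.16 (R 4.3.3) was run on these counts (TMM scaling, filterByExpr, two-sided, Benjamini-Hochberg adjustment over all genes tested). The factor contrasts used the 12 differentiating CG4 libraries, the primary contrast 8, the CG4 contrast 7 and the interaction and level contrasts 15. Standard errors are the log2 fold change divided by the root of the F statistic. The procedure was tested on simulated data. Levels are CPM scaled by TMM over genes in all files, and are not compared between genes. Totals of 20063345 to 49206479 counts set the precision.

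Library numbers were taken as pairing the differentiating CG4 groups, because deviations from the group means correlated between libraries of the same number in every pair (r = 0.192 to 0.690 for Zfp488 and control, 0.143 to 0.554 for Nkx2.2 and control, 0.264 to 0.559 for Zfp488 and Nkx2.2). They did not in primary cells (-0.044 to 0.103) or between control and proliferating CG4 cells (-0.130 to 0.045). Libraries of different numbers lay at -0.561 to 0.153 for Zfp488 and control. They lay at -0.631 to 0.386 for Nkx2.2 and control and at -0.561 to 0.279 for Zfp488 and Nkx2.2, overlapping the same-number values. Control library 4 correlated more with Nkx2.2 library 3 (0.291) than with Nkx2.2 library 4 (0.143), so the pairing is weaker for some numbers. Fits with the number as a block are given beside the unblocked counts of the factor contrasts.

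The same contrasts were repeated with DESeq2 1.42.0, with RLE size factors, with thinning to the smallest library, without the filter on low counts, with the block, with other sets of libraries or genes and without each library in turn. Any member could be named, with up to 4 other sterol genes per comparison by smallest adjusted p and a mean of at least 5 CPM. The members and lists were chosen with earlier results of these data known. Some genes of the further sterol list are not reported here.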

Additional observations from a re-analysis of the deposited data

Results flagged for a closer look

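Single libraries lay far from the rest of their group of 4 for a few members. In 9 of 153 sets of 1 member in 1 group of 4 libraries the highest or lowest library was separated by more than Dixon's critical value, where chance gives about 5 in 100. Library 3 of the Nkx2.2 group was high for Hmgcs1 (973.1 CPM), Insig1 (536.2 CPM) and Pmvk (67.46 CPM), and low for Scap (172.8 CPM). Library 3 of the Zfp488 group was high for Srebf2 (1247 CPM) and Lss (228 CPM), and library 3 of the control group for Srebf2 (1408 CPM) and Hsd17b7 (66.39 CPM). Library 1 of the Zfp488 group was high for Apoe (33.19 CPM).

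The response to differentiation differed between CG4 and primary cells, by the interaction term of edgeR's quasi-likelihood test, for 26 of 29 members. On the log2 scale and as CG4 minus primary, the early enzymes stood at -2.91 for Acat2, -2.21 for Hmgcs1, -1.74 for Mvk, -0.69 for Pmvk, -0.83 for Mvd, -2.69 for Idi1 and 3.32 for Fdps. The later enzymes stood at -1.60 for Fdft1, -1.07 for Sqle, -2.04 for Lss, -1.92 for Cyp51, -1.62 for Nsdhl, -1.71 for Hsd17b7, -1.39 for Ebp and -0.55 for Dhcr7. Sensing genes stood at 0.72 for Srebf2, 0.56 for Scap, -1.36 for Insig1 and -1.87 for Insig2. Genes of movement and export stood at -2.86 for Stard4, -1.48 for Npc1, 1.04 for Npc2, 4.47 for Abca1, 3.05 for Abcg1, 4.74 for Apoe and 0.65 for Nr1h2. Vector, read length and cell source cannot be told apart in these values, and the values of Acat2 and Fdps rest on their uncertain levels in proliferating CG4 cells.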

How the results depend on the processing

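With the replicate block, the count of members called was 9 instead of 3 for Zfp488 against control, 14 instead of 3 for Nkx2.2 against control and 18 instead of 7 for Zfp488 against Nkx2.2. Outside these pairs the block gave 17 calls instead of 20 in CG4 differentiation, without Lss, Ebp and Abcg1, and 28 of 28 in primary cells. With libraries numbered 3 left out, chosen after seeing the data, the counts were 2, 8 and 12, and with the block as well 6, 11 and 18. These counts stand without the share of all genes and cannot be set against the background. Leaving out each library in turn gave 0 to 3 calls for Zfp488 against control, lowest without Zfp488 library 4 and 1 without Zfp488 library 2, 2 to 5 for Nkx2.2 against control and 5 to 14 for Zfp488 against Nkx2.2, both highest without Nkx2.2 library 3. It gave 28 to 28 in primary differentiation, 16 to 18 in CG4 differentiation, 25 to 26 for the interaction, 22 to 23 while differentiating and 16 to 18 while proliferating. DESeq2 called 4, 4 and 10 members in the factor contrasts. Over all genes it called 2136, 2320 and 4461 there, against 1339, 1567 and 3741 by edgeR's quasi-likelihood test. Calls over all genes moved as well, from 1339 to 458 for Zfp488 against control without Zfp488 library 4. Without Nkx2.2 library 3 they moved from 1567 to 2302 for Nkx2.2 against control and from 3741 to 4636 between the factors. Soat1 in primary cells changed sign to 0.23 without differentiating libraries 3 and 4. The cause was not tested. Over single members, leaving out 1 library kept direction and call in 2728 results and lost the call in 73, RLE size factors lost it in 5, no filter in 2 and thinning in 3. The authors' unstated counting of near-identical copies limits Fdps and Acat2, and 3 proliferating CG4 libraries limit Abca1 and Abcg1.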
